A study of Mus musculus with 20 samples.

Results

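The genes of glycolysis, of pyruvate entry into the mitochondrion, of the TCA cycle and of the malate-aspartate shuttle were followed in the mouse left ventricle after doxorubicin (DOXO) and folic acid (FA). A list of 40 such genes was drawn up by function. A gene was measured by the transcript cluster, the array's summary of its probes, that is annotated to its symbol alone, or, where several were, by that with the highest mean. This gave 38 of the 40 genes, out of 19937 genes with a cluster of their own. They were 15 glycolysis genes, 8 genes of pyruvate entry, 12 TCA cycle genes and 3 shuttle genes, while Pfkfb1 and Mpc2 were dropped. None of the 38 passed an unadjusted p of 0.01 in limma in any of 6 comparisons, either from group means or with a covariate. All 38 followed how far the signals of an array spread, and their median signal was high (8.76 against 6.57 over all clusters).

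All mice were male C57BL/6, 2 months old by their labels, and ate a soft dough diet. FA-DOXO mice (n = 6) received FA in the diet at 10 mg per day from 7 days before a single intraperitoneal dose of DOXO at 20 mg/kg, and were studied until day 10. DOXO mice (n = 6) received the same dose with a placebo diet. FA-sham mice (n = 4) received FA without DOXO, and sham mice (n = 4) received neither. The samples of a group are numbered as replicates and the labels do not name the animals, so that p-values measure the spread between these samples.

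Glycolysis splits glucose to pyruvate in the cytosol. Pyruvate is reduced to lactate, or crosses the inner mitochondrial membrane and is turned into acetyl-CoA by the pyruvate dehydrogenase complex, a step that kinases switch off and a phosphatase switches on. The TCA cycle oxidises acetyl-CoA and hands the electrons to the respiratory chain, and the malate-aspartate shuttle carries the electrons of cytosolic NADH into the mitochondrion. The adult heart takes most of its energy from fatty acids and the rest largely from glucose and lactate. DOXO is an anthracycline that is toxic to heart muscle and its mitochondria.

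The arrays differed in the SD of their 34760 log2 signals, from 0.863 to 1.501. The SD averaged 1.037 ± 0.185 in FA-DOXO (SD, n = 6), 1.127 ± 0.265 in DOXO (n = 6), 0.957 ± 0.123 in FA-sham (n = 4) and 1.266 ± 0.253 in sham (n = 4), with no difference passing a permutation test over the 4 groups (p = 0.242). Arrays with an SD above 1.1, here called wide, were 2 of FA-DOXO, 2 of DOXO, 1 of FA-sham and 3 of sham, and the other 12 are called narrow. Summed markers of cardiomyocytes, endothelial cells, fibroblasts and macrophages moved with the SD. The summed signal of 10 cardiomyocyte markers was 15.79 to 16.76 on the log2 scale on wide arrays and 12.00 to 15.35 on narrow ones, that of 7 endothelial markers 10.31 to 12.27 and 9.55 to 10.18, that of 7 fibroblast markers 12.03 to 12.93 and 9.94 to 11.91, and that of 7 macrophage markers 10.00 to 10.70 and 9.43 to 9.91. Among the fibroblast markers Dcn, the proteoglycan decorin, averaged 12.34 on wide and 9.07 on narrow arrays, while the collagens Col1a1 (7.29 and 7.65), Col1a2 (7.36 and 7.52) and Col3a1 (7.08 and 7.33) went the other way. The sums of the other lists had lower medians on wide than on narrow arrays. They were 3 atrial markers (8.05 to 8.92 and 8.26 to 9.53) and 5 skeletal muscle markers (8.26 to 8.87 and 8.87 to 9.14). They were also 4 adipocyte markers (7.68 to 8.49 and 8.48 to 8.73), 3 erythroid markers (7.48 to 8.29 and 8.14 to 8.38) and 6 neutrophil markers (8.25 to 10.17 and 9.12 to 9.55). In whole tissue, fewer cells of a type and less RNA per cell cannot be told apart. Here neither can be told from a difference in the spread of the array itself. Why the sums moved with the SD was not tested. Because of this spread, differences are given both from group means alone and with the array SD as a covariate.

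All 38 genes had higher signals on arrays with a larger SD. Within groups, the slope of a gene's log2 signal on the array SD had a median of 6.54 log2 units per unit of SD (1.77 to 9.68), against -0.53 over all 34760 clusters, of which 13361 had a slope above 0. The 38 genes also had a higher mean signal, with a median of 8.76 against 6.57 over all clusters. Whether their slopes differ from those of other clusters of like signal was not tested. The correlation with the array SD after removal of the group means had a median of 0.94 over the 38 genes (0.65 to 0.98, over 20 arrays). By role, the median slope was 5.33 for glycolysis, 5.16 for pyruvate entry, 7.62 for the TCA cycle and 8.56 for the shuttle. The median signals of these roles were 8.68, 8.09, 8.85 and 9.70 in the same order. The lowest slopes were those of Pfkl, the liver-type phosphofructokinase (1.77), Hk2, the insulin-regulated hexokinase (2.06), and Hk1 (2.24). The highest were those of Got1, the cytosolic aspartate aminotransferase (9.68), Mdh2, the mitochondrial malate dehydrogenase (8.92), and Idh3b, a subunit of NAD-dependent isocitrate dehydrogenase (8.64).

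**Figure D1:**
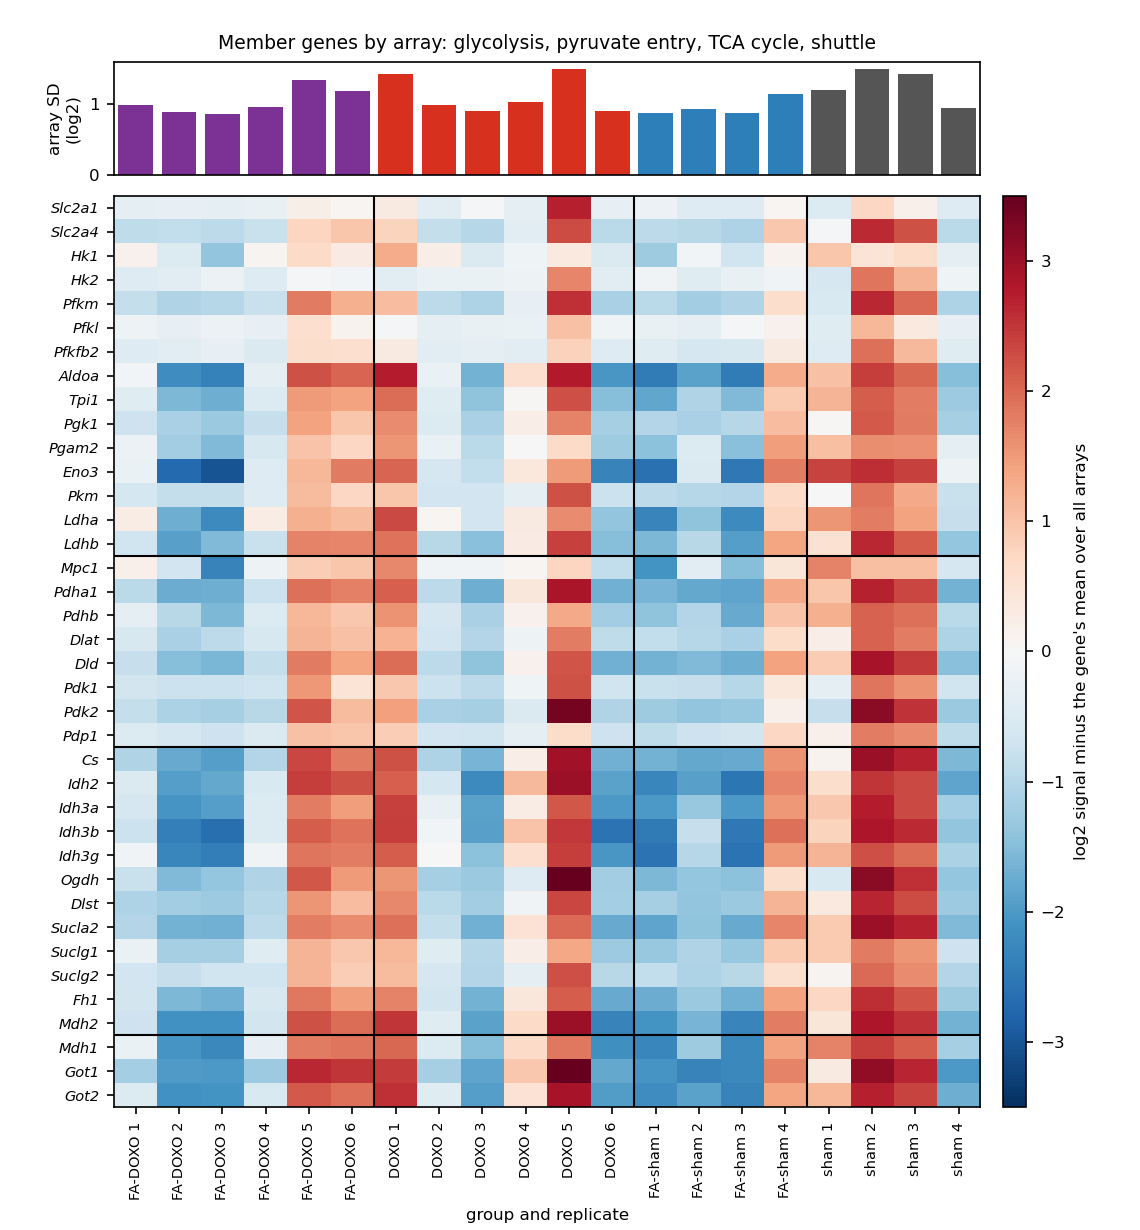
Log2 signal of each of the 38 genes (rows, in the order glycolysis, pyruvate entry, TCA cycle and shuttle, parted by horizontal lines) on each of the 20 arrays (columns, parted by group), minus the gene's mean over all arrays, with the SD of each array as bars above. In each group the columns under tall bars are red for most genes, and the wide arrays are 2 of FA-DOXO, 2 of DOXO, 1 of FA-sham and 3 of sham.

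The mean signal of the glycolysis genes, each taken relative to its mean over all arrays, followed that of the TCA cycle genes with r = 0.99 over the 20 arrays, which share tissue, platform and array SD. The slope of the glycolysis mean on the TCA mean was 0.65. On this scale the glycolysis mean was -0.21 ± 0.99 in FA-DOXO (SD, n = 6), 0.11 ± 1.15 in DOXO (n = 6), -0.63 ± 0.94 in FA-sham (n = 4) and 0.77 ± 1.18 in sham (n = 4). The TCA mean was -0.22 ± 1.57 in FA-DOXO, 0.14 ± 1.76 in DOXO, -0.90 ± 1.53 in FA-sham and 1.03 ± 1.81 in sham. Both means stood in the same order over the groups, and even FA-sham and sham, which lay farthest apart, differed by little more than the SDs within them. The glycolysis mean minus the TCA mean was 0.02 ± 0.59, -0.03 ± 0.65, 0.28 ± 0.59 and -0.26 ± 0.64 in FA-DOXO, DOXO, FA-sham and sham, and it had r = -0.91 with the array SD.

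**Figure D2:**
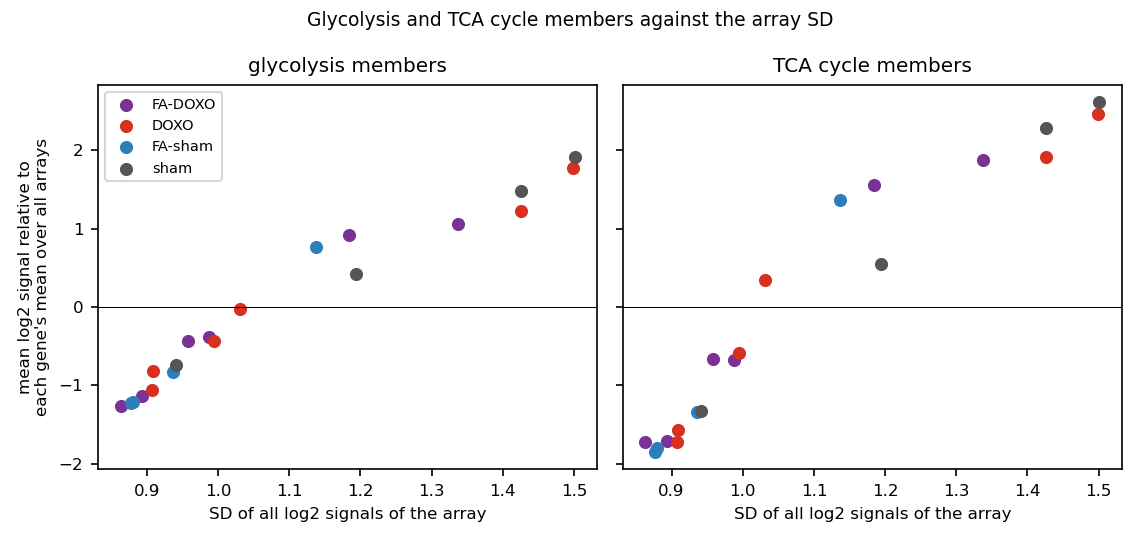
Mean log2 signal of the 15 glycolysis genes (left) and the 12 TCA cycle genes (right), relative to each gene's mean over all arrays, against the SD of all log2 signals of the array, with 1 point per array coloured by group. The points of the 4 groups lie along one rising band, from an SD of 0.863 to 1.501, and the band is steeper for the TCA cycle (slope 7.39) than for glycolysis (slope 4.78).

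In DOXO *versus* sham, 0 of 38 genes passed an unadjusted p of 0.01 in limma, where 1.05% of all clusters did, and 0 passed at 0.05, where 5.73% did. The fitted log2 difference was below 0 for 37 of the 38 genes, with a median of -0.80 (-1.78 to 0.34) and a smallest adjusted p of 0.647. Its median was -0.62 over the glycolysis genes, -0.78 over pyruvate entry, -0.89 over the TCA cycle and -0.85 over the shuttle, against 0.10 over all clusters. With the covariate the median over the 38 genes was 0.09 (-0.85 to 0.68), with 21 genes above 0 and 17 below (18 to 28 above 0, and medians of -0.01 to 0.17, with single arrays left out). The glycolysis median was then 0.08 and the TCA median 0.16, against 0.04 over all clusters. No gene passed 0.01 in that fit either, where 4.14% of clusters did, and 1 gene, Slc2a1, passed 0.05, where 12.7% did. Within one kind of array the medians were above 0 too, at 0.35 for glycolysis and 0.42 for the TCA cycle on wide arrays (2 DOXO and 3 sham) and at 0.17 and 0.39 on narrow ones (4 DOXO and 1 sham). At an adjusted p under 0.05 no gene of the 38 passed in either fit, against 0.00288% and 0.17% of clusters. The covariate narrowed the 95% intervals, which reached a median of 1.86 to either side of the estimate without it and 0.63 with it. With it, 25 of the 38 intervals lay within a log2 difference of 1 on either side of 0, against 1 without it. With arrays weighted by their residual spread, all 38 passed 0.01, as did 18394 clusters upward and 11120 downward of the 34760, with weights from 0.0728 for DOXO replicate 5 to 86 for sham replicate 3.

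Among the markers of other cells, 4 of 6 for neutrophils rose at 0.01 from group means, with a median of 0.83 over the 6, and 4 did with the covariate, with a median of 0.91. Their summed log2 signal was 9.13 to 10.17 in DOXO and 8.25 to 9.12 in sham, ranges that all but touch. Of single clusters, 0.351% had no overlap between these groups. In FA-sham, without DOXO, the sum was 8.95 to 9.20, partly within the DOXO range. Over all groups its median was 9.00 on wide and 9.21 on narrow arrays, and sham held 3 wide arrays. Of the 10 cardiomyocyte markers 0 passed 0.01, and 0 passed 0.05, in either fit. Their median difference was -1.03 from group means and -0.17 (-0.37 to 0.13) with the covariate. Their summed log2 signal was 13.20 to 16.45 in DOXO and 14.17 to 16.76 in sham. Of 7 macrophage markers 0 passed 0.05 from group means (median -0.07), and with the covariate 2 rose at 0.01 and 3 at 0.05 (median 0.25). The part of any of them in the differences of the 38 genes was not tested.

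**Figure D3:**
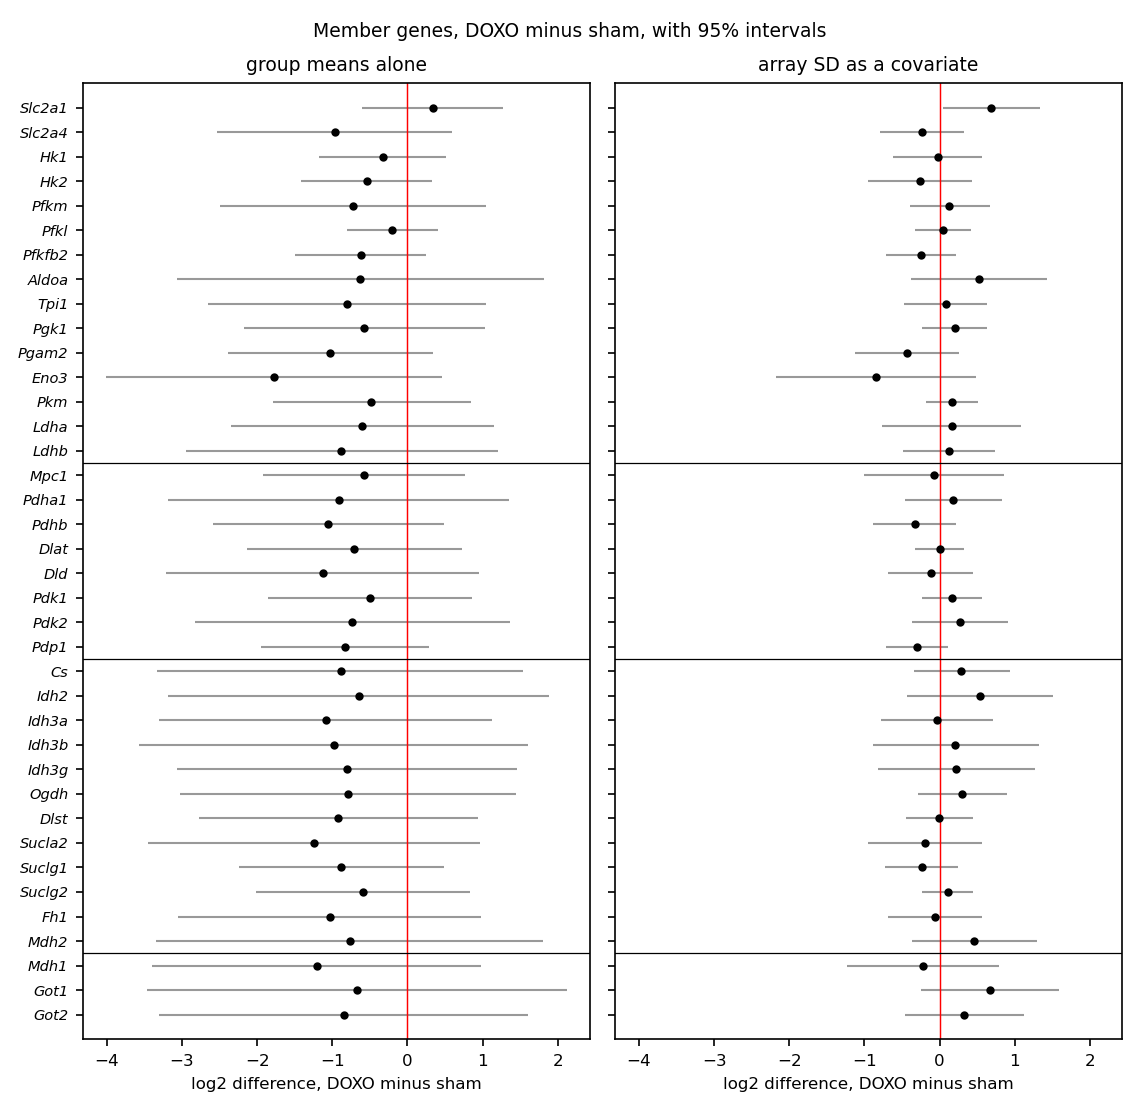
Log2 difference, DOXO minus sham, of each of the 38 genes (rows, by role) with its 95% interval (bars), from group means alone (left) and with the array SD in the fit (right). On the left 37 of 38 points lie below 0, while on the right 21 lie above and 17 below 0 and the bars are shorter.

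Among the genes of glucose uptake and trapping, Slc2a4, the insulin-responsive glucose transporter GLUT4 of muscle and fat, had log2 signals of 6.78, 7.18 and 10.07 in DOXO (lowest, median and highest of 6), and of 6.83, 7.71, 10.00 and 10.40 in sham. The groups overlapped, and the high DOXO and sham values came from wide arrays. Its difference was -0.97 (95% interval -2.53 to 0.59) from group means and -0.23 (-0.79 to 0.32) with the covariate. Slc2a1, the basal transporter GLUT1, had 6.87, 7.12 and 10.00 in DOXO (lowest, median and highest), and 6.80, 6.83, 7.46 and 7.99 in sham. A single DOXO array, replicate 5, lay far above the rest, and the other DOXO values lay within the range of sham. The difference of Slc2a1 was 0.34 (-0.60 to 1.27) from group means and 0.68 (0.04 to 1.33) with the covariate (limma adjusted p = 0.362). Without that array it was -0.14 and 0.16, while without DOXO replicate 1 it was 0.34 and 0.93, the last past 0.01 (adjusted p = 0.207). Hk2 had 6.64, 6.80 and 8.74 in DOXO, with replicate 5 again the highest, and 6.44, 6.89, 8.22 and 8.92 in sham. Its difference was -0.54 from group means and -0.26 with the covariate. The difference of Hk1, the hexokinase found in most tissues, was -0.33 and -0.02. The annotation of its cluster holds 1 accession and no RefSeq transcript, and a second cluster of Hk1 with 4 RefSeq transcripts gave 0.03 and 0.44.

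Phosphofructokinase commits glucose to glycolysis. Pfkm, its muscle form, had log2 signals of 7.09, 7.62 and 10.79 in DOXO (lowest, median and highest of 6), and 7.15, 7.70, 10.21 and 10.86 in sham, ranges that nearly coincide. Its difference was -0.72 from group means and 0.13 (95% interval -0.40 to 0.67) with the covariate. The differences of Pfkl were -0.20 and 0.04, and those of Pfkfb2, which makes the activator fructose 2,6-bisphosphate in the heart, were -0.62 and -0.25. In lower glycolysis the widest differences from group means were those of Eno3, the muscle enolase, and Pgam2, the muscle phosphoglycerate mutase. Eno3 had 7.57, 9.81 and 11.96 in DOXO, and 9.74, 12.29, 12.31 and 12.51 in sham, with 3 of 6 DOXO arrays below every sham array. Its difference was -1.78 (-4.01 to 0.46) from group means and -0.85 (-2.18 to 0.48) with the covariate, and the two-sided exact permutation test gave p = 0.0952. Pgam2 gave -1.03 and -0.43, while Tpi1, Pgk1, Pkm and Aldoa gave -0.81 to -0.48 from group means and 0.08 to 0.52 with the covariate. A second cluster of Pkm gave -0.24 and 0.09.

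Lactate dehydrogenase interconverts pyruvate and lactate. Ldha, the subunit that prevails in skeletal muscle, had log2 signals of 8.74, 10.31 and 12.44 in DOXO (lowest, median and highest of 6), and 9.31, 11.54, 11.68 and 11.91 in sham. Ldhb, the subunit that prevails in the heart, had 7.29, 8.46 and 11.17 in DOXO, and 7.44, 9.33, 10.91 and 11.42 in sham. For both subunits the groups overlapped over nearly the whole range of sham, and 1 DOXO value of Ldha lay above it. The differences were -0.60 for Ldha and -0.88 for Ldhb from group means, and 0.16 (95% interval -0.76 to 1.08) and 0.13 (-0.49 to 0.74) with the covariate.

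The 250 bases before the starts of the 38 genes were searched for the core of the element that hypoxia-inducible factors bind, ACGTG, on both strands. These sequences come from RefSeq (GRCm38.p6), where 35 of the 38 genes were found, with 53 starts. The core was in 8 of 14 glycolysis genes (57.1%), 2 of 7 of pyruvate entry, 2 of 11 of the TCA cycle (18.2%) and 1 of 3 of the shuttle, against 18.5% of all 27025 genes. Counted by start, it was in 11 of 24 for glycolysis (45.8%) and 7 of 16 for the TCA cycle (43.8%), against 16.6% of all starts. Those of the TCA cycle were all of Idh3g and Ogdh. Ldha held the most copies, 5, counting a match on each strand, and is shown with the core and its reverse complement in capitals. The element of the estrogen-related receptors, AAGGTCA, was found in Got1 alone, 2.86% of the 35 genes against 4.70% of all, and is in capitals in its sequence. A match is a description of the letters, and no binding was measured.
Ldha chr7:46845554-46845803, plus strand: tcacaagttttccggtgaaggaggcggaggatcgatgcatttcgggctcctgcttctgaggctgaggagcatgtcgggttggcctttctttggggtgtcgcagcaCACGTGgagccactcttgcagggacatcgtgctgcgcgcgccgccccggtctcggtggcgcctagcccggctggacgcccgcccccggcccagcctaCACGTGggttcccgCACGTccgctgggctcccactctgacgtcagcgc
Got1 chr19:43524606-43524855, minus strand: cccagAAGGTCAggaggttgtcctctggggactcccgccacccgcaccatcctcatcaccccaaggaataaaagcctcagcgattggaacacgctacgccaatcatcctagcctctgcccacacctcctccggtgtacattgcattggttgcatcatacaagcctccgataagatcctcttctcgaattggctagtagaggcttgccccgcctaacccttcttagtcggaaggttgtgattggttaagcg
The Ldha sequence has its cores in 3 places, a pair of which are the palindrome CACGTG, and the Got1 sequence has its element near its 5′ end.

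Mpc1, a subunit of the mitochondrial pyruvate carrier, gave a difference of -0.58 in DOXO *versus* sham from group means and of -0.07 with the covariate. Pdha1, the catalytic alpha subunit of pyruvate dehydrogenase, had log2 signals of 7.14, 8.58 and 11.70 in DOXO (lowest, median and highest of 6), and 7.18, 9.81, 11.18 and 11.54 in sham. The lowest and the highest values of both groups were nearly the same. Its difference was -0.91 from group means and 0.18 (95% interval -0.46 to 0.83) with the covariate. Pdhb, Dlat and Dld, which encode the beta subunit and the other catalytic components of the complex, gave -1.13 to -0.71 from group means and -0.33 to 0.00 with the covariate. Pdk2, a kinase that shuts the complex, had 6.63, 7.01 and 11.13 in DOXO, and 6.49, 6.99, 10.32 and 10.95 in sham, with no separation of the groups. Its difference was -0.74 and 0.27, that of the kinase Pdk1 -0.50 and 0.16, and that of Pdp1, a phosphatase that opens the complex, -0.83 and -0.30.

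Within the TCA cycle, Cs, citrate synthase, had log2 signals of 7.12, 8.39 and 11.75 in DOXO (lowest, median and highest of 6), and 7.24, 8.92, 11.49 and 11.81 in sham. Its difference was -0.89 (95% interval -3.33 to 1.54) from group means and 0.29 (-0.34 to 0.93) with the covariate. Idh2, the NADP-dependent isocitrate dehydrogenase of mitochondria, had 7.30, 9.78 and 12.51 in DOXO, and 7.69, 10.15, 11.84 and 12.02 in sham. The highest single value of Idh2 thus came from a DOXO array, and the groups overlapped over nearly their whole range. Its difference was -0.65 from group means and 0.54 (-0.43 to 1.51) with the covariate. Ogdh, the first component of the 2-oxoglutarate dehydrogenase complex, had 7.04, 7.52 and 11.90 in DOXO, and 6.99, 7.79, 10.88 and 11.49 in sham. Its difference was -0.79 and 0.30 (-0.29 to 0.90 with the covariate). The other 9 genes of the cycle gave -1.24 to -0.59 from group means, with Sucla2, a succinyl-CoA ligase subunit, the lowest, and -0.24 to 0.46 with the covariate. The value of -0.59 was that of Suclg2, of which a second cluster gave -0.03 from group means and 0.19 with the covariate. In the shuttle, Got1 had 7.23, 8.95 and 12.60 in DOXO (lowest, median and highest), and 7.07, 9.39, 11.73 and 12.18 in sham, again without separation. Mdh1, Got1 and Got2 gave -1.21, -0.67 and -0.85 from group means, and -0.22, 0.67 and 0.33 with the covariate.

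When FA was added to DOXO, in FA-DOXO *versus* DOXO, 0 of 38 genes passed 0.01 in limma from group means (0.158% of all clusters did) and 0 passed 0.05 (1.31%). The differences were below 0 for 37 of 38 genes, with a median of -0.33 (-0.60 to 0.10). This direction rested on a few arrays, as 10 of 38 were below 0 without DOXO replicate 5 (median 0.08) and 22 without DOXO replicate 1 (median -0.02). With the covariate 33 of 38 were above 0, with a median of 0.25 (-0.26 to 0.51), 95% intervals reaching a median of 0.56 to either side, and again 0 genes past 0.01 (1.11% of clusters). All 12 TCA cycle genes were below 0 in the one fit, with a median of -0.38 (3 of 12 without DOXO replicate 5, with a median of 0.09), and above 0 in the other, with a median of 0.29. With a 2-level block for the kind of array, wide or narrow, the TCA median was -0.38 again, and it was -0.48 within wide and -0.29 within narrow arrays, so that its sign depended on how the array SD was treated. Pdp1 was the 1 gene past 0.05 with the covariate, where 5.86% of clusters were, at 0.44 (95% interval 0.08 to 0.81, limma adjusted p = 0.839). Its log2 signals were 7.59, 7.82 and 9.34 in FA-DOXO, and 7.58, 7.81 and 9.18 in DOXO (lowest, median and highest of 6 each), which all but coincide.

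In FA-DOXO *versus* FA-sham, which asks for the effect of DOXO under FA, 0 of 38 genes passed 0.01 in limma (0.268% of clusters from group means and 1.07% with the covariate), and 0 passed 0.05 (1.25% and 4.92%). At an adjusted p under 0.05 no gene of the 38 passed either, against 0.00288% and 0.0259% of clusters. The differences ran the other way from those without FA, with 37 of 38 above 0 and a median of 0.57 (-0.05 to 1.26) from group means. With the covariate the median was 0.05 (-0.21 to 0.68, and -0.04 to 0.33 for the median with single arrays left out), and it was -0.04 for glycolysis and 0.06 for the TCA cycle. Within wide arrays these medians were 0.25 and 0.28, and within narrow arrays 0.23 and 0.41. The widest difference in that fit was that of Ldha, at 0.68 (95% interval -0.22 to 1.58). Ldha had log2 signals of 7.90, 10.40 and 11.38 in FA-DOXO (lowest, median and highest of 6), and 7.83, 7.90, 8.73 and 10.89 in FA-sham. All 4 FA-sham values lay within the range of FA-DOXO or just below it.

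From group means, FA alone gave the widest differences. In FA-sham *versus* sham all 38 were below 0, with a median of -1.84 (-2.74 to -0.26), of -1.39 for glycolysis and of -2.03 for the TCA cycle, against 0.19 over all clusters. Still, 0 of 38 passed 0.01 in limma, where 4.35% of clusters did, and the smallest adjusted p was 0.156. At 0.05, 6 of the 38 (Hk1, Eno3, Ldha, Mpc1, Pdhb and Suclg1) were lower, while 31.0% of all clusters passed in either direction. Of the 10 cardiomyocyte markers 5 passed 0.05, all lower, with a median over the 10 of -2.37, while at 0.05 4 of 4 adipocyte, 3 of 6 neutrophil, 2 of 3 atrial, 2 of 5 skeletal muscle and 1 of 3 erythroid markers were higher, 1 neutrophil and 1 atrial marker among them at 0.01. With the covariate 0 of the cardiomyocyte, adipocyte, atrial, skeletal muscle and erythroid markers passed 0.05, and 3 neutrophil and 2 of 7 macrophage markers were higher. The part of these cells in the differences of the 38 genes was not tested. Without FA-sham replicate 4, 6 genes passed 0.01 from group means (Pgam2, Eno3, Ldha, Mpc1, Pdhb and Suclg1), as did 1509 clusters upward and 687 downward. Without sham replicate 4, 4 did (Ldha, Mpc1, Pdhb and Suclg1), as did 8178 and 1598. Sham held 3 of its 4 arrays in the wide class and FA-sham 1 of 4. With the covariate the median was 0.24 (-0.67 to 0.73), with 28 genes above 0 (15, with a median of -0.10, without FA-sham replicate 4), and 0 of 38 passed 0.01 (1.83% of clusters) or 0.05 (7.93%). Within wide arrays, with 1 FA-sham array, the medians were -0.55 for glycolysis and -0.45 for the TCA cycle, and within narrow arrays, with 1 sham array, -0.14 and -0.35, so that the sign again depended on how the array SD was treated. Of the 6 genes past 0.05, Eno3 had 7.32, 7.43, 9.42 and 11.72 in FA-sham, against 9.74, 12.29, 12.31 and 12.51 in sham, and differed by -2.74 from group means and by -0.67 with the covariate. Its FA-sham replicate 4, a wide array, lay among the sham values.

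Neither the interaction of DOXO and FA nor the effect of DOXO averaged over both diets was past 0.01 for any of the 38 genes in limma. For the interaction, 0.463% of clusters passed from group means and 1.78% with the covariate. At 0.05, 0 of the 38 did, against 5.19% and 8.63% of clusters. Its median over the 38 genes was 1.5 from group means, with 37 above 0, and 0.03 with the covariate. For the averaged effect, 0.506% and 2.83% of clusters passed 0.01, and 0 of the 38 passed 0.05, against 1.99% and 8.54%. At an adjusted p under 0.05 no gene of the 38 passed, against 0.0115% and 0.227% of clusters. Its median was -0.11 from group means (0.17 without FA-sham replicate 4, -0.43 without sham replicate 4) and 0.07 with the covariate. The median of the interaction with the covariate was -0.16 to 0.30 with single arrays left out. No gene of the 38 had groups free of overlap in any of the 4 pairs of groups, where 0.351% of clusters had in DOXO *versus* sham, 0.135% in FA-DOXO *versus* DOXO, 0.808% in FA-DOXO *versus* FA-sham and 4.81% in FA-sham *versus* sham. Comparisons that share a group of mice are not independent of each other.

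Once the group means and a straight-line slope on the array SD were taken away, the 38 genes still varied together over the arrays. A curved relation to the array SD was not removed, and its part in this was not tested. The same correlation over other clusters is not given. The correlation between pairs of genes had a median of 0.93 over 703 pairs after the group means were removed, and of 0.50 (-0.81 to 0.97) once the slope was removed too, with the same 20 arrays behind every pair. At high array SD, the median deviation was -0.45 on DOXO replicate 5 (array SD 1.499) and -0.38 on DOXO replicate 1 (1.426). It was 0.01 on sham replicate 3 (1.426). At low array SD, it was -0.26 on FA-DOXO replicate 2 (0.893) and 0.02 on DOXO replicate 3 (0.909). Between these, FA-sham replicate 4 (1.137) lay above the fit for 34 of 38 genes (median deviation 0.81) and DOXO replicate 4 (1.031) for 33 (median 0.57). Among the glycolysis genes, Eno3 deviated by 1.54 and 1.01 on these arrays and Slc2a4 by 0.49 and 0.15. Among the TCA cycle genes, Idh2 deviated by 1.41 and 1.71, and Ogdh by 0.14 and 0.15. The genes that stood high on these arrays were thus not all of one pathway. Sham replicate 1 parted the genes in both directions, 21 above and 17 below the fit. Mpc1 (1.18), Eno3 (1.05), Mdh1 (0.98) and Ldha (0.96) were above it, while Pdk2 (-1.18), Hk2 (-1.03), Ogdh (-0.94) and Pfkm (-0.84) were below. Both sides held genes of glycolysis.

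**Figure D4:**
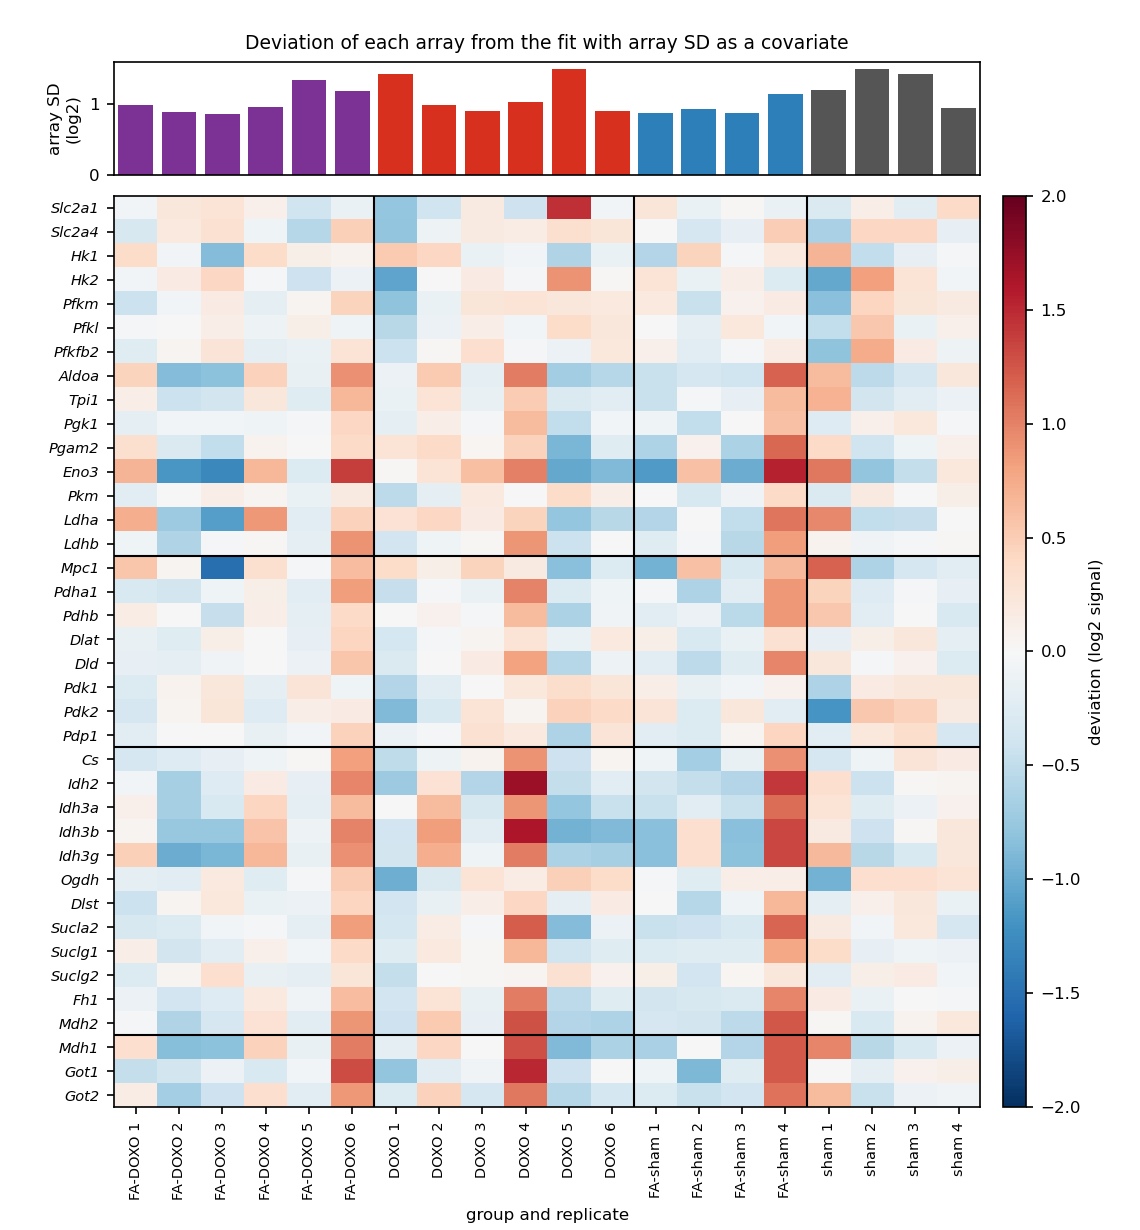
Log2 signal of each of the 38 genes (rows, by role) on each of the 20 arrays (columns, by group) minus the value fitted from its group and the array SD, with the SD of each array as bars above. FA-sham replicate 4, DOXO replicate 4 and FA-DOXO replicate 6 are red for most genes, and sham replicate 1 is red for 21 genes and blue for 17.

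The 10 genes whose signals were most like the mean of the TCA cycle genes, by Pearson's r over the 20 arrays after the group means were removed, were Ndufv1 and Prdx3 (0.997), Phyh, Crip2, Ndufs3, Acadl and Etfa (0.996), and Atp5a1, Etfdh and Prkag1 (0.995). Ndufv1 and Ndufs3 are subunits of respiratory complex I, Atp5a1 is a subunit of ATP synthase, and Acadl, Etfa and Etfdh act in fatty acid oxidation. No role is given here for Prdx3, Phyh, Crip2 and Prkag1. Such values were common, as 1228 of 19788 genes (6.21%) had r above 0.95. The array SD was not removed from these values, and the TCA mean itself had r = 0.96 with it within groups. Shared regulation of these genes was not tested.

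Beyond the 38 genes, 59 of 66 further genes of glycolysis, glycogen and pentose phosphate metabolism, pyruvate entry, the TCA cycle and fuel regulation could be measured, and 0 of the 59 passed 0.01 from group means in DOXO *versus* sham, FA-DOXO *versus* DOXO, FA-DOXO *versus* FA-sham, FA-sham *versus* sham, the interaction or the averaged effect (limma). At 0.05, 1 was lower in DOXO *versus* sham (5.73% of all clusters passed), 1 higher in FA-DOXO *versus* FA-sham (1.25%), 3 higher and 3 lower in FA-sham *versus* sham (31.0%), and 0 passed in the other comparisons. With the covariate 6 were higher and 2 lower at 0.05 in DOXO *versus* sham (12.7% of all clusters), 5 higher in FA-DOXO *versus* DOXO (5.86%), 2 higher in FA-DOXO *versus* FA-sham (4.92%), 7 higher in FA-sham *versus* sham (7.93%), 1 lower in the interaction (8.63%) and 7 higher in the averaged effect (8.54%). Of 10 genes of glycogen and pentose phosphate metabolism, 5 were higher at 0.05 in DOXO *versus* sham in that fit, and 10 were above 0 with a median of 0.32, while from group means 3 were above 0 with a median of -0.25. With the covariate, Pgm1, a phosphoglucomutase by its symbol, rose at the unadjusted threshold by 0.45 in DOXO *versus* sham (limma adjusted p = 0.157) and by 0.52 in FA-sham *versus* sham (adjusted p = 0.516). Slc25a12, an aspartate-glutamate carrier of the shuttle, rose by 0.72 in FA-sham *versus* sham (adjusted p = 0.535). Prkaa1, a catalytic subunit of the AMP-activated kinase, rose by 0.22 in FA-DOXO *versus* DOXO (adjusted p = 0.839), and Taldo1, transaldolase, by 0.32 in the effect of DOXO averaged over both diets (adjusted p = 0.142).

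Pdk4, the pyruvate dehydrogenase kinase that fasting and fatty acids induce, had the widest of these differences. Its log2 signals were 8.17, 9.57 and 12.47 in FA-DOXO (lowest, median and highest of 6), and 6.61, 6.65, 6.79 and 9.20 in FA-sham. The 6 FA-DOXO arrays were above the 3 narrow FA-sham arrays, and the 1 wide FA-sham array lay among them. Pdk4 rose by 1.83 ± 0.54 (SE) in FA-DOXO *versus* FA-sham with the covariate, at the unadjusted threshold only (limma adjusted p = 0.743), and differed by 2.30 from group means. Within the narrow arrays (4 FA-DOXO and 3 FA-sham) the difference was 2.20. Within the wide ones it was 1.87, from 2 FA-DOXO arrays (12.47 and 9.68) and 1 FA-sham array (9.20). With the covariate but without FA-sham replicate 2 it was 1.66 and no longer past 0.01. Without FA, Pdk4 had 6.86, 9.18 and 10.60 in DOXO (lowest, median and highest of 6), and 6.53, 9.10, 10.41 and 10.90 in sham. These groups overlapped over nearly their whole range, and the difference was -0.11 from group means and 0.71 ± 0.55 (SE) with the covariate. Averaged over both diets it was 1.27 ± 0.38 (SE) with the covariate (adjusted p = 0.241), where it was 1.1 and no longer past 0.01 without sham replicate 4, and 1.1 from group means. The difference of Pdk4 between the effects of DOXO with and without FA did not pass, at 2.41 from group means (adjusted p = 0.57) and 1.12 with the covariate.

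**Figure D5:**
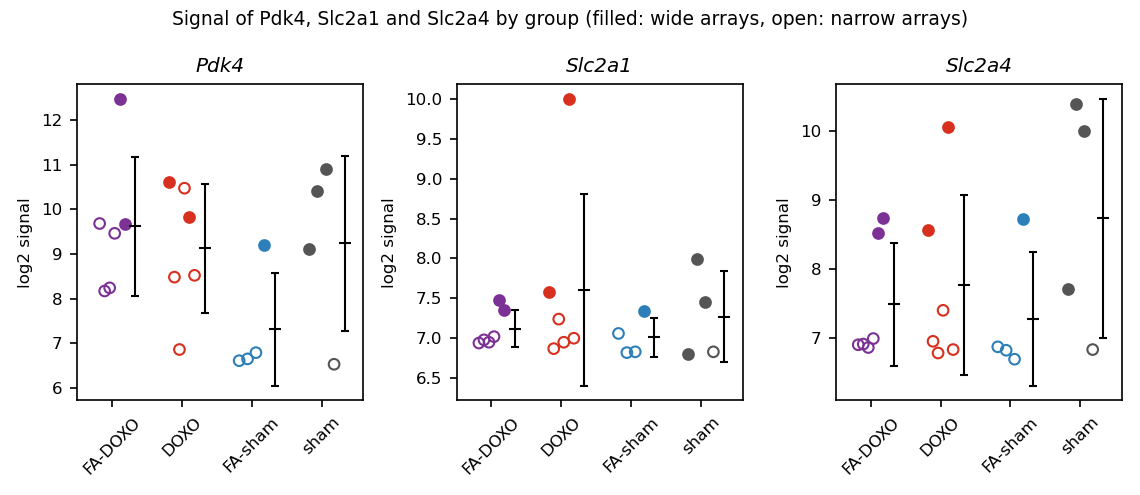
Log2 signal of Pdk4, Slc2a1 and Slc2a4 on each array by group, filled for wide and open for narrow arrays, with the mean and SD of each group at its right. In Pdk4 the 6 FA-DOXO points lie above 3 of the 4 FA-sham points, in Slc2a1 a single DOXO point at 10.00 stands alone, and in Slc2a4 the filled points lie at the top of every group.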

How the data were processed

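The authors isolated RNA with a fibrous tissue kit, checked it on a Bioanalyzer, hybridised it to Mouse Gene 1.0 ST arrays and analysed the scans in R 2.14.2 with Bioconductor packages. The deposited values are log2 signals per transcript cluster, while how background, normalization and probe summary were handled is not given in the sources used here. Signals of different arrays do not share a distribution, so the array SD can enter every comparison.

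Starting from these values, limma 3.58.1 in R 4.3.3 fitted 1 mean per group to 34760 clusters over all 20 arrays without a filter, with two-sided moderated tests, the unadjusted threshold of 0.01 that the study uses, and Benjamini-Hochberg adjustment over all clusters. The array SD as a covariate was the first alternative. Single genes were also tested with exact permutation tests in SciPy 1.17.1, and the array SD over the groups with 100000 resamples. The fits were tested on simulated data. Gene symbols came from the platform annotation. It gave 1 symbol to 21640 clusters, several to 1321 and none to 11799. No arrays were identical (highest r = 0.9801).

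The members, the lists and the tests were chosen with earlier results of these data known. Named are up to 4 members per role with the smallest p in DOXO *versus* sham, any member past 0.01 in either fit, and Slc2a4, Hk2, Pfkm, Ldha, Ldhb, Pdha1, Pdk2, Cs, Idh2 and Ogdh. Genes of other pathways are named where past 0.01 in either fit, and the genes most like the TCA cycle by their r. Genes named for their deviations, slopes or motifs, and those past 0.05 alone, were chosen after their values were seen. Markers of neutrophils, macrophages, erythroid cells, adipocytes and skeletal muscle were also listed. In DOXO *versus* sham, 1 of 3 erythroid markers passed 0.01, lower, in both limma fits. From group means 0 of 7 endothelial, 7 fibroblast, 7 macrophage, 4 adipocyte, 3 atrial and 5 skeletal muscle markers did (0 at 0.05). With the covariate 2 macrophage markers passed 0.01 and 3 passed 0.05, all higher, and 1 fibroblast marker passed 0.05, lower. The alternatives were the wide or narrow arrays alone or as a block, quantile normalization, median centring with and without scaling, filters on clusters, a trended and robust fit, array weights, the compared groups alone, the mean over the clusters of a gene, a block for the replicate number, and leaving out each array.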

Additional observations from a re-analysis of the deposited data

Results flagged for a closer look

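Of 152 tests for a sample that lies far from the other samples of its group (38 genes in 4 groups), 27 found one by Dixon's criterion, whose nominal rate is about 5%. The share of all clusters that this rule flags was not computed, so the count is not a result about these genes. The tests are not independent, since the genes vary together over the same arrays. In FA-sham, replicate 4, the 1 wide array of that group, was the highest sample for 37 of 38 genes and lay that far above the others for 22. For these 22, its log2 signals for the glycolysis genes were Slc2a4 8.73, Pfkm 8.86, Aldoa 11.43, Pgk1 9.82, Pkm 9.34. For the genes of pyruvate entry they were Pdha1 10.16, Dlat 8.80, Dld 9.43, Pdk1 7.94, Pdk2 7.96, Pdp1 9.03. For the TCA cycle and the shuttle they were Cs 10.36, Idh2 11.22, Ogdh 8.96, Dlst 9.05, Sucla2 10.61, Suclg1 9.44, Suclg2 8.44, Fh1 10.19, Mdh2 11.20, Got1 10.80, Got2 11.08.

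In DOXO, replicate 5, a wide array with an SD of 1.499, lay that far above the others for Slc2a1 (10.00), Hk2 (8.74) and Pfkl (7.67). In sham, replicate 4, the 1 narrow array of that group, lay that far below the others for Eno3 (9.74) and Ldha (9.31). Why these samples differ was not tested.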

How the results depend on the processing

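No gene of the 38 passed 0.01 in any of the 6 comparisons under quantile normalization, median centring with or without scaling, the filters, the trended and robust fit, the mean over a gene's clusters, or the wide or narrow arrays alone or as a block. Under array weights most of all clusters passed in DOXO *versus* sham, as given above, with sham replicate 3 weighted 86. Shares of all clusters in the other comparisons are not given, so the counts that follow are not a result about these genes. Array weights called 38 genes in DOXO *versus* sham, FA-sham *versus* sham and the interaction, and 30 in the averaged effect. They moved the median of glycolysis minus that of the TCA cycle to 0.98 in DOXO *versus* sham and -1.33 in the interaction, turned Slc2a1 to -0.44 and 0.51 in these comparisons, and gave Pdk2 -1.57, Mdh2 -1.32, Got1 -1.50 and Got2 -1.11 in the averaged effect. Leaving out single arrays gave 0 to 6 genes in FA-sham *versus* sham and 0 in the other comparisons, and with the covariate 1 gene in DOXO *versus* sham (without DOXO replicate 1) and 0 elsewhere. With all arrays, 4.14% of clusters passed in DOXO *versus* sham with the covariate.

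Glycolysis minus TCA cycle in FA-sham *versus* sham was 0.64 from group means, -0.14 with the array SD as covariate, computed with or without the 38 genes, -0.02 with wide and narrow arrays as block, -0.10 in wide arrays and 0.21 in narrow ones. Leaving out single arrays from the covariate fit gave -0.28, -0.25, -0.22, -0.21, -0.20, -0.19, -0.17, -0.16, -0.15, -0.14 and -0.13, and up to 0.07, and 0.23 in the interaction without DOXO replicate 5. The cause was not tested.

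Over 26 pairs of samples with the same replicate number in different groups, deviations from the group means had a median r of -0.0638 (-0.856 to 0.839). Over 122 pairs with different numbers it was 0.224 (-0.927 to 0.889). The array SD was not removed from these deviations, so they cannot decide whether the numbers pair the samples. A replicate block called 0 genes in each comparison and gave glycolysis minus TCA cycle 0.50 in DOXO *versus* sham. Together with the array SD, added after seeing the data as were the covariate fits without single arrays, the block called 1 gene in FA-DOXO *versus* DOXO (Pdp1) and 2 in FA-sham *versus* sham (Pgk1 0.71 and Cs 0.89), where glycolysis minus TCA cycle was -0.26. The share of all clusters called in this last fit is not given, so these calls are not a result about the named genes. The number of arrays limits the precision throughout.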
